A study of Mus musculus with 6 samples.

Results

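Enzymes that make asparagine and proline, or move amino groups between amino acids, were examined in IFNγR1KO and scrambled control B16 melanoma cells. The group holds 9 genes, chosen by name, with earlier results of these data known, from 55335 genes in the count tables: Asns, Aldh18a1, Pycr1, Pycrl, Prodh, Oat, Ass1, Got1 and Gpt2. Their identifiers were matched to GENCODE release M21, and all 9 passed the filter on low counts, as did 13642 genes in all. The lowest count of any of the 9 in any library was 26. B16 is a mouse melanoma line, here its B16-BL6 derivative. IFNγR1KO cells were transduced with a lentivirus carrying Cas9 and a guide against Ifngr1, which encodes a chain of the interferon-gamma receptor. Scrambled control cells, whose genotype is labelled WT, received the same vector with a guide against GFP. Both went through puromycin selection and growth from single cells. The authors worked with single IFNγR1KO clones rather than mixtures, and the labels do not say how many clones the sequenced cultures come from. No cytokine was added. RNA was taken after overnight seeding, from 3 scrambled control cultures (numbered 1, 2 and 3) and 3 IFNγR1KO cultures (10, 11 and 12). The p-values below therefore measure the spread between parallel cultures. The medium held glutamine and a supplement of non-essential amino acids, which as usually sold contains asparagine, aspartate, glutamate, alanine and proline.

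Apart from Ass1, these enzymes act on glutamate or on routes that lead from or to it. Asparagine synthetase, encoded by Asns, moves the amide nitrogen of glutamine onto aspartate. Proline is built from glutamate or from ornithine by routes that join at pyrroline-5-carboxylate, a compound that is then reduced to proline. Aldh18a1 opens the route from glutamate and Oat the route from ornithine, Pycr1 and Pycrl encode reductases of the final step, and Prodh encodes the oxidase that turns proline back into pyrroline-5-carboxylate. Got1 and Gpt2 encode aminotransferases that hand the amino group of glutamate to oxaloacetate or pyruvate, giving aspartate or alanine. Ass1 joins aspartate to citrulline on the way to arginine and is known for being silenced in many human melanomas. Asns is a textbook target of ATF4, a transcription factor that binds C/EBP-ATF response elements when amino acids run short.

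The promoters of 3 of the enzymes are shown because each holds the core of such an element, spelled TGATGNAA, and because all 3 genes rose in IFNγR1KO cells. RefSeq windows of 300 bases, from 250 before to 50 after the annotated start in GRCm38.p6, were given for 8 of the 9 genes, with none for Pycrl. The core, searched on both strands, stood once in the windows of Asns, Pycr1 and Got1. It was not found in those of Aldh18a1 and Gpt2, which rose as well, or in those of Oat, Ass1 and Prodh. Over all 32851 windows, 3.97% held it. The palindrome TGACGTCA, the full cAMP response element, cannot be spelled by the same 8 letters and was found in none of the 8 windows and in 1.79% of all windows. Each stretch is written 5′ to 3′ on the strand of its gene, which is the minus strand for all 3, with the match in capitals.

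Asns, chr6:7693214-7693243: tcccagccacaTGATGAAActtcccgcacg

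Pycr1, chr11:120643798-120643897: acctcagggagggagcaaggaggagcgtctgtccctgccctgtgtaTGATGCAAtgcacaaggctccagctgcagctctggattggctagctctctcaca

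Got1, chr19:43524654-43524753: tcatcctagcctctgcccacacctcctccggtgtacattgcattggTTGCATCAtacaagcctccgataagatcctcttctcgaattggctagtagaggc

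In Asns the match began 23 bases before the RefSeq start and lay within a GENCODE exon of Asns itself. In Pycr1 it began 103 bases and in Got1 102 bases before the start, outside annotated exons. The match in Got1 reads on the opposite strand, so the letters shown are its reverse complement. These are matches of letters in a window, and binding was not measured here.

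Libraries of scrambled control cells held between 9402640 and 10579788 counts on genes, and those of IFNγR1KO cells held between 6698956 and 7409479. A single count therefore stood for 0.0966 to 0.109 CPM in scrambled control and 0.135 to 0.142 CPM in IFNγR1KO libraries, where CPM is the usual depth-normalised count, with library sizes scaled by the TMM factors of edgeR. Differences were tested with edgeR's quasi-likelihood test over all 13642 genes with Benjamini-Hochberg adjustment, and a gene was called at an adjusted p under 0.05. A called gene with an absolute log2 fold change above 1 was counted as a DEG. Ifngr1 itself had 154, 144 and 172 counts in scrambled control and 80, 85 and 82 in IFNγR1KO libraries, or -0.47 on the log2 scale (edgeR adjusted p = 0.0729), and its groups did not overlap. Chi-square statistics per degree of freedom were 2.74 between IFNγR1KO libraries 10 and 11 and between 16.2 and 20.01 for either of them against library 12. Between scrambled control libraries they were 9.99 for 1 and 2, 24.7 for 1 and 3 and 22.2 for 2 and 3, so libraries 3 and 12 each stood apart within their group. All 7 melanocytic markers (Dct, Pmel, Tyrp1, Tyr, Mlana, Mitf and Sox10) were tested and none was called. Their summed level was 31716 to 34659 CPM in scrambled control and 27898 to 32830 CPM in IFNγR1KO cells. Of 6 fibroblast markers, Col1a1 and Col1a2 rose and their list summed to 57.0 to 75.4 CPM in scrambled control against 129 to 133 CPM in IFNγR1KO libraries. Pdgfra was not called, at 3.60 ± 0.481 CPM in scrambled control cells, against 2.10 ± 0.327 CPM in IFNγR1KO cells (SD, n = 3 each), which did not overlap (-0.77 on the log2 scale, edgeR adjusted p = 0.0866). Lum had no count in any library, and Dcn and Col3a1 averaged at most 0.135 CPM in either group. Which cells gave the Col1a1 and Col1a2 transcripts was not tested. The part of any such cells, or of the clones compared, in the results below was not tested either. No keratinocyte or endothelial marker and 1 of 7 immune markers (Lyz2, not called) passed the filter on low counts.

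Of the 9 enzymes, 5 rose in IFNγR1KO cells and none was called lower. Among all genes tested, 7.73% were called higher and 7.62% lower. Asns, Aldh18a1, Pycr1 and Gpt2 were DEGs, where 3.25% of all genes tested were higher DEGs and 1.96% lower DEGs. Got1 rose by less. The 4 that were not called were Pycrl, Prodh, Oat and Ass1. For the 5 that rose, every IFNγR1KO library lay above every scrambled control library, as it did for 16% of all genes tested, with 16.6% the other way round. The median log2 fold change was 0.69 over the 9 enzymes and -0.0015 over all genes tested. Because the 9 were chosen with earlier results of these data known, these comparisons describe the group and do not test it. Both groups overlapped for each of the other 4. In bulk RNA, more cells that express a gene and more transcript per cell cannot be told apart.

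**Figure D1:**
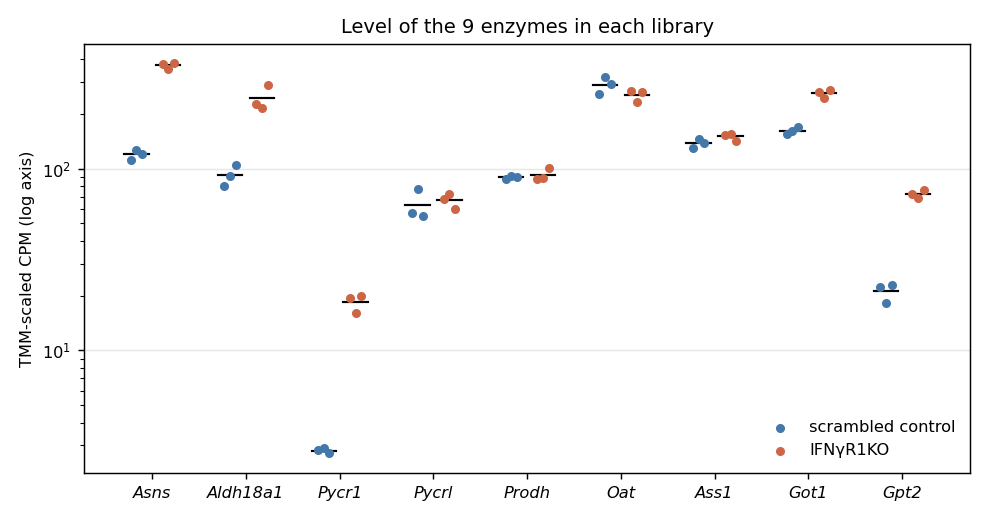
TMM-scaled CPM (log axis) of the 9 enzymes, with 1 point per library, scrambled control in blue and IFNγR1KO in orange, and a black line at the mean of each group of 3. The points of the groups are apart for Asns, Aldh18a1, Pycr1, Got1 and Gpt2 and overlap for Pycrl, Prodh, Oat and Ass1.

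Asns (ENSMUSG00000029752.12, chromosome 6, 7675169 to 7693254, GRCm38) encodes the only enzyme that makes asparagine in mammalian cells. It was at 111, 127 and 121 CPM in scrambled control libraries 1, 2 and 3. It was at 377, 354 and 379 CPM in IFNγR1KO libraries 10, 11 and 12. The means were 119.6 ± 7.68 and 370.2 ± 13.9 CPM (SD, n = 3 each), and the spread within each group was small beside the gap. The log2 fold change was 1.63 (standard error, SE, of 0.13, and edgeR adjusted p = 1.1e-05), which is 3.09-fold. Only 142 of the 13642 genes tested had a larger log2 fold change. The enzymes that take asparagine apart, Aspg and Asrgl1, were not called. Asrgl1 was at 15.1 ± 2.38 CPM in scrambled control cells, against 12.8 ± 1.47 CPM in IFNγR1KO cells, and Aspg at 26.6 ± 4.45 and 20.9 ± 2.57 CPM (SD, n = 3 each).

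Along the route from glutamate to proline, the genes of the first and last step rose. Aldh18a1 (ENSMUSG00000025007.13, chromosome 19, 40550257 to 40588463) encodes the synthase that turns glutamate into pyrroline-5-carboxylate in mitochondria. It was at 80.4, 90.8 and 105 CPM in scrambled control libraries, against 227, 216 and 289 CPM in IFNγR1KO libraries. The highest value was that of library 12. Its log2 fold change was 1.40 (SE = 0.16, edgeR adjusted p = 0.000166), or 2.65-fold. Tested against a log2 fold change of 1, its adjusted p was 0.206, whereas Asns, Pycr1 and Gpt2 passed that test too.

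Pycr1 (ENSMUSG00000025140.15, chromosome 11, 120635712 to 120643769) encodes a mitochondrial reductase of the last step. It had 26, 29 and 28 counts in scrambled control libraries and 136, 118 and 142 in IFNγR1KO libraries, although the latter were less deeply sequenced. These are 2.82, 2.89 and 2.71 CPM against 19.3, 15.99 and 19.96 CPM. Pycr1 was thus the lowest of the 9 enzymes in control cells and had the largest change, a log2 fold change of 2.71 (SE = 0.20, edgeR adjusted p = 5.2e-06). The fold was 6.54 with a 95% interval from 4.85 to 8.83. Only 37 genes tested had a larger log2 fold change.

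The cytosolic reductase did not follow. Pycrl (ENSMUSG00000022571.9, chromosome 15, 75916477 to 75921560), also named Pycr3, encodes it. It was at 56.8, 77.01 and 54.8 CPM in scrambled control libraries, against 68.1, 72.6 and 59.7 CPM in IFNγR1KO libraries, which overlap. Its log2 fold change was 0.09 (SE = 0.16, edgeR adjusted p = 0.768), with a 95% interval of the fold from 0.838 to 1.35.

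The ornithine route and the breakdown of proline were likewise not called. Oat (ENSMUSG00000030934.9, chromosome 7, 132557478 to 132576398) encodes ornithine aminotransferase. It was at 257, 319 and 291 CPM in scrambled control libraries, against 266, 233 and 264 CPM in IFNγR1KO libraries. The groups overlapped, with a log2 fold change of -0.18 (SE = 0.14, edgeR adjusted p = 0.441) and a 95% interval of the fold from 0.713 to 1.09. Prodh (ENSMUSG00000003526.12, chromosome 16, 18060357 to 18090203) was at 87.9, 90.7 and 90.4 CPM in scrambled control libraries, against 87.9, 89.0 and 101 CPM in IFNγR1KO libraries. Its log2 fold change was 0.05 (SE = 0.13, edgeR adjusted p = 0.848), with a 95% interval of the fold from 0.854 to 1.25. Aldh4a1, which takes pyrroline-5-carboxylate back to glutamate, was at 8.61 ± 0.365 and 7.05 ± 0.465 CPM (SD, n = 3 each, edgeR adjusted p = 0.351). It was not called, although its groups did not overlap, and a gene on its own strand covers 32.5% of its exonic length.

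Of the 3 aminotransferases of the group, Got1 and Gpt2 rose and Oat, described above, was not called. Got1 (ENSMUSG00000025190.13, chromosome 19, 43499752 to 43524605) encodes the cytosolic aspartate aminotransferase, a part of the malate-aspartate shuttle that carries reducing equivalents into mitochondria. It was at 155, 161 and 169.8 CPM in scrambled control libraries, against 265, 245 and 272 CPM in IFNγR1KO libraries. The log2 fold change was 0.69 (SE = 0.13, edgeR adjusted p = 0.00401), or 1.61-fold. Got2, its mitochondrial counterpart, was at 304 ± 33.8 and 244 ± 33.5 CPM (SD, n = 3 each), or -0.32 on the log2 scale (edgeR adjusted p = 0.186), and genes of the opposite strand cover 8.997% of its exonic length.

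Gpt2 (ENSMUSG00000031700.11, chromosome 8, 85492576 to 85527560) encodes the mitochondrial alanine aminotransferase. It was at 22.4, 18.1 and 22.9 CPM in scrambled control libraries, against 72.3, 68.5 and 76.3 CPM in IFNγR1KO libraries. The log2 fold change was 1.78 (SE = 0.14, edgeR adjusted p = 1.1e-05), or 3.43-fold. Gpt, which encodes the cytosolic enzyme of the same reaction, was at 12.5 ± 1.83 and 15.6 ± 4.64 CPM (SD, n = 3 each, edgeR adjusted p = 0.388).

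Ass1 (ENSMUSG00000076441.9, chromosome 2, 31470207 to 31520672) was counted in every library, at 130.3, 146 and 138 CPM in scrambled control libraries, against 154, 156 and 142 CPM in IFNγR1KO cells. The ranges overlapped through library 12. Its log2 fold change was 0.12 (SE = 0.13, edgeR adjusted p = 0.581), with a 95% interval of the fold from 0.899 to 1.32. Of its 50-base stretches, 38.6% also stand in Gm5424, a near-identical copy, so reads from those stretches could be set aside as aligned to several places and the level of Ass1 may be understated. Gm5424 itself had between 15 and 39 counts per library. For the other 8 enzymes the shared part was at most 1.19%, and no exonic base of any of the 9 lay under an exon of another gene. Asl, the enzyme after Ass1, was at 54.2 ± 5.57 and 58.1 ± 3.34 CPM (SD, n = 3 each, edgeR adjusted p = 0.682).

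**Figure D2:**
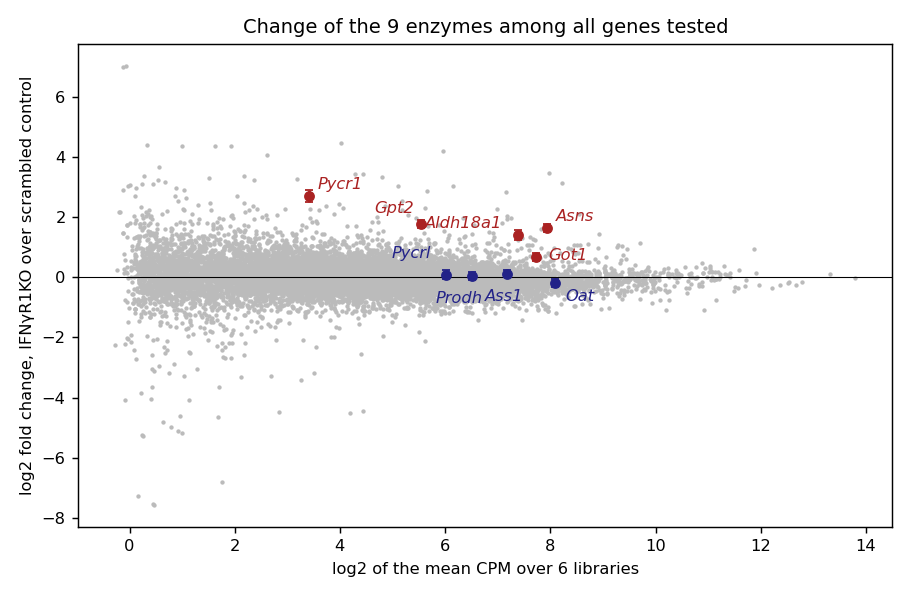
Log2 fold change of IFNγR1KO over scrambled control (vertical axis) against the log2 of the mean CPM over the 6 libraries, with a grey point for each of the 13642 genes tested and standard errors on the 9 enzymes. Red marks the 5 enzymes called higher, from 0.69 for Got1 to 2.71 for Pycr1, and blue the 4 not called, between -0.18 and 0.12.

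Whether one enzyme changed more than its partner was examined with ratios inside each library, which do not depend on how libraries are scaled. Levels were taken per kilobase of exonic length with 0.5 counts added, and 8 ratios were compared, of which 7 are described here and 2 of these share Pycr1. In 6 of the 7, the 3 IFNγR1KO libraries lay above the 3 scrambled control libraries. In all 6 the first gene had already been called higher and the second had not been called. Their direction therefore follows from those calls and is no separate support for them. Each of these 6 gave p = 0.1 in a two-sided exact permutation test, the smallest p that 3 libraries against 3 allow, and 0.114 after adjustment over the 8 ratios, so this test could not pass 0.05.

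The ratio of Pycr1 to Pycrl was 0.0172, 0.013 and 0.0171 in scrambled control and 0.0969, 0.0752 and 0.114 in IFNγR1KO libraries, which is 6.01-fold higher. Pycr1 transcripts therefore remained fewer per length than those of Pycrl in all 6 libraries. Between building and breaking down proline, the ratio of Pycr1 to Prodh was 0.0631 ± 0.00237 in scrambled control and 0.395 ± 0.0398 in IFNγR1KO cells (SD, n = 3 each). Between the routes into proline, the ratio of Aldh18a1 to Oat was 0.182, 0.165 and 0.209 in scrambled control and 0.495, 0.536 and 0.634 in IFNγR1KO libraries, 2.99-fold higher. Oat transcripts thus outnumbered those of Aldh18a1 per length in all 6 libraries.

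Per kilobase of all exons, the cytosolic and mitochondrial aspartate aminotransferases were near parity in scrambled control cells, with a ratio of Got1 to Got2 of 1.06, 1.047 and 0.943. In IFNγR1KO libraries it was 2.24, 2.08 and 1.83, 2.01-fold higher. The near parity depends on the length used. Got2 has 4824 exonic bases but a longest transcript of 2530, against 2539 and 2058 for Got1. With the longest transcript the ratio would be lower in every library, with the same fold between groups. For alanine the ratio of Gpt2 to Gpt was 0.858, 0.692 and 1.14 in scrambled control and 1.92, 2.12 and 3.75 in IFNγR1KO libraries, with library 12 far above the other two. The ratio of Asns to Asrgl1 went from 12.5 ± 1.35 to 45.4 ± 3.84 (SD, n = 3 each). The ratio of Ass1 to Asl was the exception, at 4.97, 4.83 and 5.57 in scrambled control and 5.29, 5.07 and 5.21 in IFNγR1KO libraries, with overlapping groups (p = 0.9, two-sided exact permutation test).

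**Figure D3:**
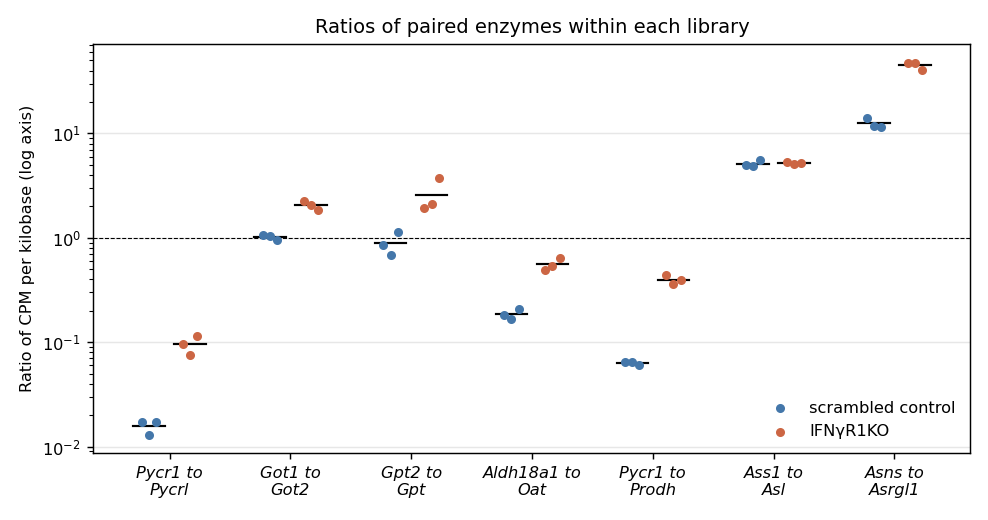
Ratio of CPM per kilobase (log axis) of paired enzymes in each of 3 scrambled control (blue) and 3 IFNγR1KO (orange) libraries, with a black line at the group mean and a dashed line at a ratio of 1. Groups are apart in 6 ratios and overlap for Ass1 to Asl.

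Per kilobase of exonic length, the order of the 9 enzymes differed between the groups. In scrambled control cells Oat was highest at 122 ± 13.2 CPM per kilobase, followed by Got1 at 63.7 ± 2.99, Ass1 at 57.2 ± 3.23, Pycrl at 46.9 ± 9.18 and Asns at 43.7 ± 2.81 (SD, n = 3 each). Aldh18a1 at 22.6 ± 3.03, Prodh at 11.5 ± 0.195, Gpt2 at 3.74 ± 0.465 and Pycr1 at 0.713 ± 0.0232 CPM per kilobase came after them (SD, n = 3 each). The ranges of Ass1 and Pycrl, and of Pycrl and Asns, overlapped, and those of all other neighbours did not.

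In IFNγR1KO cells Asns was highest, at 135 ± 5.07 CPM per kilobase, above the ranges of the other 8. Oat at 108 ± 7.80 and Got1 at 103 ± 5.63 CPM per kilobase came next with overlapping ranges, as did Ass1 at 62.3 ± 2.93 and Aldh18a1 at 59.9 ± 9.60 (SD, n = 3 each). Aldh18a1 also overlapped Pycrl, at 49.9 ± 4.87 CPM per kilobase. Gpt2 at 12.8 ± 0.690 and Prodh at 11.9 ± 0.946 CPM per kilobase overlapped, and Pycr1 stayed lowest at 4.68 ± 0.543 (SD, n = 3 each). With the length of the longest transcript in place of all exons, Ass1 stood above Got1 and Asns above Pycrl in scrambled control cells, and Got1 stood above Oat in IFNγR1KO cells, while Asns remained first and Pycr1 last there.

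**Figure D4:**
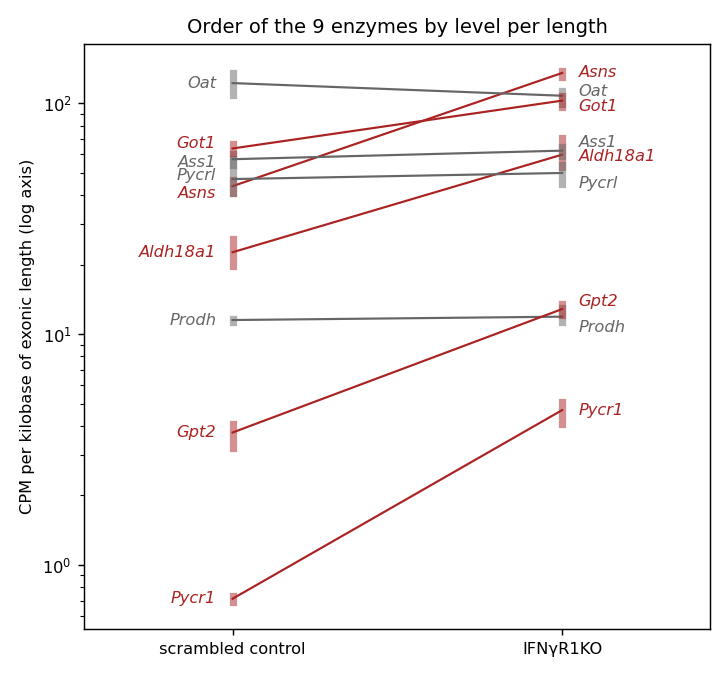
Mean level of each enzyme in CPM per kilobase of exonic length (log axis) in scrambled control and IFNγR1KO cells, joined by a line, with bars over the range of the 3 libraries. Red lines are the 5 enzymes called higher, and Asns moves from the fifth place to the first.

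The enzymes around the 9 were counted in 6 hand-written lists holding 63 further genes, of which 42 passed the filter on low counts. Of these 42, 4 rose, 3 fell and 35 were not called, which is 9.52% higher and 7.14% lower beside 7.73% and 7.62% of all genes tested. Their median log2 fold change was -0.06. Outside the aminotransferase and glutamine lists, none of the further genes was called. This holds for 9 tested genes of asparagine and aspartate metabolism, 6 of proline metabolism, 3 of the urea cycle and arginine, and 7 of the malate-aspartate shuttle.

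All 4 further genes that rose were aminotransferases, among 8 tested. Kyat1, a kynurenine aminotransferase, went from 3.30 ± 0.552 to 8.38 ± 2.92 CPM (SD, n = 3 each), or 1.35 on the log2 scale (edgeR adjusted p = 0.00689). Abat, which degrades the transmitter GABA, went from 27.2 ± 5.56 to 59.6 ± 6.83 CPM (SD, n = 3 each), or 1.13 on the log2 scale (edgeR adjusted p = 0.000943). Bcat1, the cytosolic branched-chain aminotransferase, went from 46.2 ± 3.98 to 81.0 ± 4.38 CPM, or 0.81 on the log2 scale (edgeR adjusted p = 0.0017). Psat1, of serine synthesis, went from 365 ± 49.8 to 553 ± 90.5 CPM, or 0.60 on the log2 scale (edgeR adjusted p = 0.0295), and was called in 2 of the 6 fits that left out a library. With Got1 and Gpt2, 6 of 11 tested aminotransferase genes rose, where 7.73% of all genes tested were called higher. Oat, Got2 and Gpt were among the 5 not called. The list was written by hand with earlier results of these data known, so its count is a description only.

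All 3 further genes that fell belong to the list of enzymes that make or use glutamine and glutamate. Of that list 13 were tested, with a median log2 fold change of -0.31, where 7.62% of all genes tested were called lower. Glul, which makes glutamine, went from 92.6 ± 11.4 to 64.5 ± 6.40 CPM (SD, n = 3 each), or -0.52 on the log2 scale (edgeR adjusted p = 0.0283). Ppat, the first enzyme of purine synthesis, went from 66.2 ± 9.49 to 42.2 ± 3.06 CPM (-0.65 on the log2 scale, edgeR adjusted p = 0.0104), and Gfpt2, of hexosamine synthesis, from 7.65 ± 0.976 to 3.69 ± 1.36 CPM (-1.05 on the log2 scale, edgeR adjusted p = 0.0225). Gfpt1, of the same step as Gfpt2, was not called, at 133 ± 20.3 and 184 ± 35.6 CPM (SD, n = 3 each, 0.47 on the log2 scale, edgeR adjusted p = 0.0803). Like Asns, Ppat and Gfpt2 encode amidotransferases that draw nitrogen from glutamine. Among genes of this kind in the list that were not called, Gfpt1, Nadsyn1 and Ctps2 had positive log2 fold changes. Cad, Pfas, Ctps and Gmps had negative ones. The calls of Glul, Ppat and Gfpt2 were less stable than those of the 5 enzymes: without IFNγR1KO library 11 none of the 3 was called, and without scrambled control library 2 only Ppat was. Of the 6 fits that left out a library, Glul was called in 2, Gfpt2 in 4 and Ppat in 5.

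**Figure D5:**
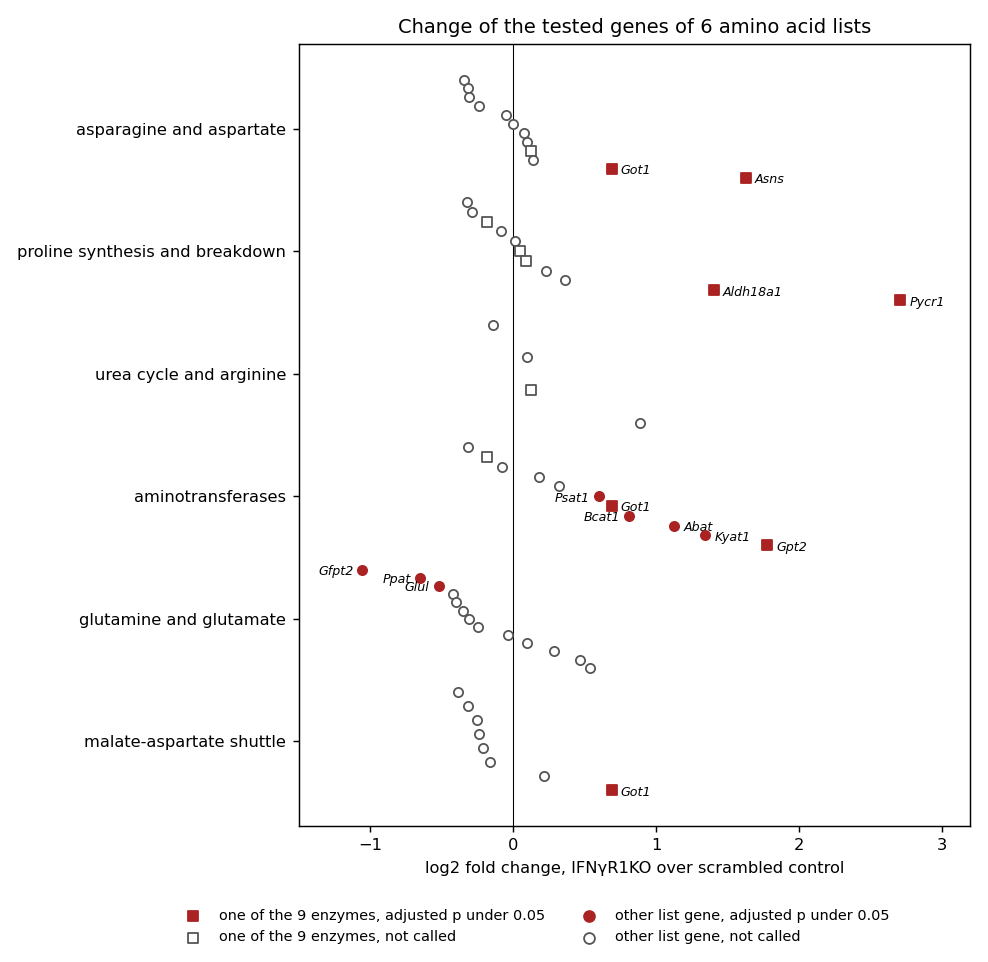
Log2 fold change of IFNγR1KO over scrambled control for the tested genes of the 6 amino acid lists, 1 symbol per gene and list, sorted within each list. Squares are the 9 enzymes, circles the other genes, and filled red symbols have an adjusted p under 0.05. The only filled circles on the right are Psat1, Bcat1, Abat and Kyat1.

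Genes with the most similar pattern were sought among 11052 other tested genes with a mean of at least 5 CPM, by the root mean square difference over the 6 libraries of log2 CPM centred on the scrambled control mean. For Asns the nearest were Arl14ep, Unc5b and Slc3a2, at differences of 0.13, 0.13 and 0.14. Slc3a2 encodes the heavy chain shared by several amino acid exchangers. For Pycr1 they were Aldh1l2, a mitochondrial folate enzyme, at 0.13, Acot2 at 0.19 and Gadd45a at 0.21. For Gpt2 they were Slc7a11, the light chain of the cystine-glutamate exchanger, at 0.09, Plcxd2 at 0.13 and Serpinf1 at 0.15. For Ass1, whose level differed little between the groups, the nearest 3 lay within 0.03 and none was called. With 2 groups of 3 libraries, any gene with a like fold change and little spread comes close by this measure.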

How the data were processed

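Total RNA of 3 scrambled control and 3 IFNγR1KO cultures was poly(A) selected and sequenced with paired ends. Per the labels, the authors used STAR 2.7.5a with GRCm38 for alignment and HTSeq 0.11.2 for counting, and the deposited values are whole counts for each gene with no normalization. The annotation release and strand setting are not given in the sources used here. GENCODE M21 held 55154 of the 55335 gene identifiers and gave symbols, positions and exonic lengths.

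Counts were analysed in R 4.3.3. Genes were filtered with filterByExpr (minimum count 10), scaled by TMM and tested with edgeR 4.0.16 (quasi-likelihood, Benjamini-Hochberg adjustment over all genes tested). DESeq2 1.42.0, limma 3.58.1 voom, other normalizations, no filter, thinning and leaving out each library were alternatives. Rows that name no gene held 53.0% to 54.0% of the listed reads and were left out. The test was checked on simulated counts. Single values and ratios were compared by exact permutation over libraries. Of 8 ratios compared, 1 is not reported here. The enzymes, gene lists and motifs were chosen with earlier results of these data known. Similar genes were computed for all 9 enzymes and reported for Asns, Pycr1, Ass1 and Gpt2, 1 for each role, and from each list the DEGs and up to 3 more called genes with the smallest adjusted p were named, beside the partners in the ratios. Promoters are from the RefSeq table (GRCm38.p6).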

Additional observations from a re-analysis of the deposited data

How the results depend on the processing

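The 5 enzymes called higher stayed called in all 12 refits (DESeq2's Wald test, RLE or upper-quartile normalization, no filter on low counts, limma voom, thinning to the smallest library, and each of 6 libraries left out), and the other 4 were called in none. The highest adjusted p among the 5 was 0.0267, for Got1 without scrambled control library 2. Testing against a log2 fold change of 1 left 3 of 4 DEGs, without Aldh18a1. Values near 0 changed sign. Pycrl ran from -0.0037 (without scrambled control library 3) to 0.26 (without scrambled control library 2), and Prodh from -0.023 (without IFNγR1KO library 12) to 0.092 on the log2 scale. The log2 difference in the ratio of Ass1 to Asl ran from -0.021 (without scrambled control library 2) to 0.082, with -0.00058 without scrambled control library 1. The differences in the other 6 ratios described stayed above 0 with a library left out and with 2 counts added. Of the further list genes, the number called lower ran from 0 (without IFNγR1KO library 11) to 5 (without IFNγR1KO library 12), with 1 without scrambled control library 2, and the number of lower DEGs from 0 to 1. Of 72 levels per kilobase recomputed, 14 moved by more than 1 SD, all with the longest transcript. No paired analysis was possible because the groups share no replicate number. Depth limits the precision for Pycr1 most, whose scrambled control counts were below 30.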
